A study of Homo sapiens with 4 samples.

Results

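The genes described here are the microRNA host genes whose symbols begin with MIR and end with HG, measured as non-coding RNA in HUH7, an established human hepatocellular carcinoma cell line. A transcript was taken as a member when its identifier, without its version, belonged to such a gene in the GENCODE annotation, and the values of a gene's transcripts were summed. MIR4435-2HG, which shares long stretches with a paralogue, was kept apart. The members were 58 genes with 193 transcripts, of 11466 matched genes and 19835 transcripts in the whole table. The annotation held 82 genes with such names, and the other 24 were not analysed here.

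The study measured HUH7 cells grown in serum-containing medium, with no treatment named, to choose long non-coding RNAs for a knockdown screen. There were 4 libraries of 1 group and no treated or control arm, so levels were compared with 5 FPKM, the study's own cut for an expressed transcript, and with each other. FPKM count fragments per length of transcript and per total of fragments placed on non-coding transcripts. Replicates 1 and 3 carry the letter L in their titles and replicates 2 and 4 the letter H, which the submitters call internal names and not variables. Whether each library had its own culture is not stated, so the p-values describe how far these 4 libraries vary, and that variation may be technical. Estimated depths ran from 4500000 to 5025000 fragments, and errors are SD over n = 4 libraries throughout.

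A microRNA is cut from a longer primary transcript, in which it lies as a hairpin. The nuclear enzyme Drosha releases the hairpin, Dicer trims it to a short duplex, and one arm guides the silencing complex to messages that pair with its seed, bases 2 to 8. Many hairpins lie in introns or exons of non-coding host genes, and the host's spliced RNA is what long-RNA sequencing reads. The mature microRNAs were not measured here, so a host's level is not the level of its microRNA.

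In all, 54 hairpins lay on the same strand inside the 33 host genes with a mean above 5 FPKM, 12 of which held more than 1 hairpin. RefSeq (GRCh38.p14 table) listed 92 mature arms of 18 to 24 nt for them, with 81 different seeds. Of these seeds, 8 were shared by several hairpins and 5 by different hosts. The arms below are shown because they carry shared seeds or name the hosts on which the results turn, with the seed in capitals. The first set is the let-7 seed, which came from 3 hosts (MIRLET7IHG, MIR100HG and MIR99AHG):
hsa-let-7i-5p: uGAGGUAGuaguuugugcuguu
hsa-let-7a-5p: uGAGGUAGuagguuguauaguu
hsa-let-7c-5p: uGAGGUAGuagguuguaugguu

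The same MIR100HG and MIR99AHG loci also shared the miR-99/100 seed and the whole of miR-125b-5p:
hsa-miR-100-5p: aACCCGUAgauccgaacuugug
hsa-miR-99a-5p: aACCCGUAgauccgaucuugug
hsa-miR-125b-5p: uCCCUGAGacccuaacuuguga

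The arms of MIR17HG, a single primary transcript with 6 hairpins, held 2 pairs of like seed, miR-17 with miR-20a and miR-19a with miR-19b, while miR-18a and miR-92a each had a seed of their own:
hsa-miR-17-5p: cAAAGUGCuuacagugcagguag
hsa-miR-20a-5p: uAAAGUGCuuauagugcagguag
hsa-miR-18a-5p: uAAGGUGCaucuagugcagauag
hsa-miR-19a-3p: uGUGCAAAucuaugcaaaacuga
hsa-miR-19b-3p: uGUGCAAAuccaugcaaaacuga
hsa-miR-92a-3p: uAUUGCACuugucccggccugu

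MIR181A1HG and MIR181A2HG each held 1 miR-181a and 1 miR-181b hairpin, so that 4 hairpins gave this seed:
hsa-miR-181a-5p: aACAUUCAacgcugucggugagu
hsa-miR-181b-5p: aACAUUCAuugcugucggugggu

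The remaining arms shown each had a seed found in no other hairpin of the set. They come from the hosts of miR-22, of liver and epithelial microRNAs, of the hypoxia- and p53-related microRNAs, and of neural and inflammatory ones:
hsa-miR-22-3p: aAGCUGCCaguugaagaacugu
hsa-miR-192-5p: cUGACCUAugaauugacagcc
hsa-miR-194-5p: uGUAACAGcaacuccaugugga
hsa-miR-205-5p: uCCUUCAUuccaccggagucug
hsa-miR-210-3p: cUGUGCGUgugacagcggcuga
hsa-miR-34a-5p: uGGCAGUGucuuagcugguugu
hsa-miR-9-5p: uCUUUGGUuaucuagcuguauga
hsa-miR-137-3p: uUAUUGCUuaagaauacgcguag
hsa-miR-146a-5p: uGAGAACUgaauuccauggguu

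Most of the host genes had a mean above 5 FPKM in HUH7 cells. Of the 58 members, 33 (56.9%) had a mean above 5 FPKM, against 34.6% of all matched genes, and 29 were above 5 FPKM in all 4 libraries. Of the 33, 12 were above 100 FPKM, 15 between 10 and 100 FPKM and 6 between 5 and 10 FPKM. At the other end, 11 members (18.97%) were listed at 0 in every library, against 34.9% of all matched genes. The members' means summed to 2825 FPKM, of which the 5 highest genes held 41.3% and the 12 highest 75.4%. In a bulk measurement such as this, fewer cells with an RNA and less of it per cell cannot be told apart.

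**Figure D1:**
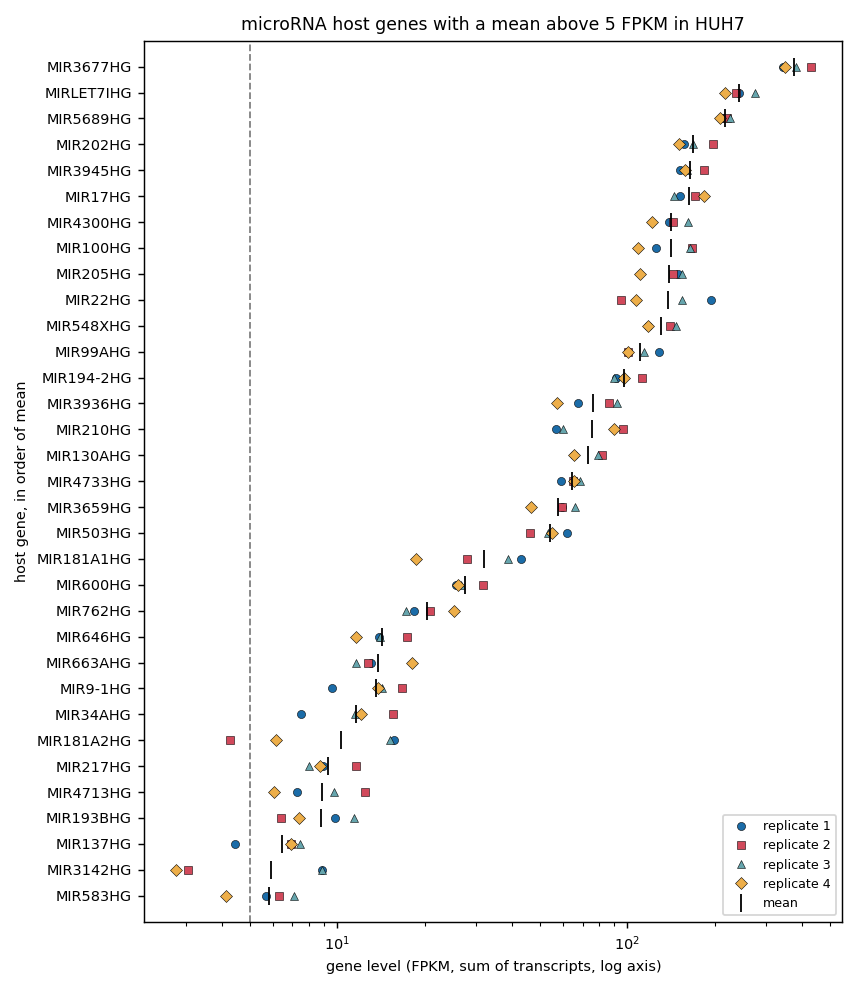
Levels of the 33 host genes with a mean above 5 FPKM, 1 line per gene in order of mean, on a log axis in FPKM. Points are the 4 libraries, black ticks the means and the dashed line 5 FPKM; MIR181A2HG, MIR137HG, MIR3142HG and MIR583HG have libraries on both sides of it.

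The level of each gene was tested against 5 FPKM on the log2(FPKM + 1) scale, which understates differences of low genes, with limma over all 7124 genes with a mean of at least 0.1 FPKM. Of 42 members tested, 30 (71.4%) were above 5 FPKM, where 50.3% of all genes tested were. A further 9 were below it, where 38.5% of all genes tested were, and 3 could not be placed. The other 16 members did not reach the filter. Members that passed the filter had a median of 24.004 FPKM, and all genes that passed it 7.61 FPKM. The 58 members hold 193 transcripts and the 11466 matched genes 18373, so a member's sum holds more transcripts on average. By the highest transcript alone, 28 instead of 30 members and 3477 instead of 3582 of all genes were above 5 FPKM. Among 93 member transcripts tested in the same way, 43 were above 5 FPKM and 35 below, where 41.9% and 43.3% of all transcripts were.

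The let-7 family, which restrains growth-promoting messages such as those of RAS and HMGA2, had a host, MIRLET7IHG (chr12:62996532-63015993 on GRCh37, plus strand), in the second place of all members. MIRLET7DHG, also named for a let-7 microRNA, had a mean of 0.085 FPKM. MIRLET7IHG stood at 243, 236, 276 and 217 FPKM in replicates 1 to 4, a mean of 243 ± 24.7. It was represented by a single transcript (ENST00000550290), and in the current model of that transcript the let-7i hairpin lies in the intron. MIR5689HG, the host of a little-studied microRNA, followed at 213, 220, 225 and 208 FPKM and varied least of the 33, with a coefficient of variation of 3.50%. Both genes kept a narrow range over the 4 libraries, and MIRLET7IHG was the higher in all 4, by 0.16 ± 0.10 on the log2 scale, although their ranges overlapped.

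The other let-7 hairpins inside hosts with a mean above 5 FPKM lie in a pair of large paralogous loci. These are MIR100HG on chromosome 11 (chr11:121899033-122427429, minus strand) and MIR99AHG on chromosome 21 (chr21:17300616-18018683, plus strand). Each holds a miR-99/100, a let-7 and a miR-125b hairpin in 1 order. MIR100HG stood at 126, 167, 164 and 108 FPKM (141 ± 28.8) and MIR99AHG at 129, 100.3, 114 and 100.3 FPKM (111 ± 13.6). Their log2 ratio within a library was 0.33 ± 0.35, MIR100HG being higher in 3 of 4 libraries, and the difference did not exceed the spread (exact sign-flip permutation test, two-sided, p = 0.25, where 4 libraries cannot go below 0.13).

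The paralogues differed in which part of the locus was measured. In MIR99AHG, transcripts that run across all 3 hairpins, with the hairpins in introns, held 111, 78.7, 89.6 and 86.6 FPKM, which was 82.4% of the gene's mean. In MIR100HG, transcripts that run across let-7a-2 and miR-100 held 0.27 ± 0.55 FPKM, being listed at 0 in 3 of 4 libraries, or 0.193% of the gene. Transcripts across miR-125b-1 held 41.1, 67.7, 58.7 and 37.1 FPKM, or 36.2%.

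Most of the MIR100HG level came from ENST00000529733 (82.7, 97.4, 105 and 71.4 FPKM, chr11:122074217-122238580), which starts and ends upstream of all its hairpins. ENST00000529733 has 22.8% repeated sequence, against 0.28% in ENST00000453910, the main transcript of MIR99AHG. ENST00000532319 (40.5, 67.0, 56.9 and 36.9 FPKM) spans only miR-125b-1. These spans are those of the current models. For both of these MIR100HG transcripts and every MIR99AHG transcript, the models carry other version numbers than the deposited ones. When only transcripts of the same version were kept, MIR100HG was below 5 FPKM, with a log2 difference of -2.10.

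MIR17HG (chr13:91999940-92049846, plus strand), the host of the miR-17-92 cluster, is a target of MYC and is often amplified or raised in tumours. It stood at 152, 172, 145 and 184 FPKM (163 ± 18.2). Its level was divided between a transcript that keeps all 6 hairpins in an exon, ENST00000582141, at 83.8, 94.8, 82.6 and 104 FPKM, and the spliced ENST00000400282, which has them in an intron, at 65.97, 75.7, 60.7 and 78.6 FPKM. The exonic form was the higher in every library. In all, 56.9% of the gene's mean had the hairpins in exons and 43.1% in introns. Neither of the main transcripts has the version of the current annotation, and with same-version transcripts alone the gene was below 5 FPKM, with a log2 difference of -1.26.

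MIR22HG (chr17:1614741-1620468, minus strand), a host known as inducible by cell stress, had the hairpin of miR-22 in an exon of all 12 of its transcripts. It stood at 194, 94.9, 155 and 107 FPKM (138 ± 45.5), with replicates 1 and 3 above replicates 2 and 4. ENST00000574306 gave 110, 62.9, 103 and 67.2 FPKM and the spliced ENST00000334146 gave 64.3, 28.4, 42.2 and 34.8 FPKM, so both forms had the gene's order of libraries. The main transcript starts 272 nt from the start of the coding gene WDR81 on the opposite strand.

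MIR210HG (chr11:565657-568457, minus strand) hosts miR-210, the microRNA most widely induced by hypoxia through HIF. It stood at 56.7, 96.3, 59.8 and 89.9 FPKM (75.7 ± 20.3), with replicates 2 and 4 above replicates 1 and 3, the opposite order to MIR22HG. Its main transcript ENST00000500447 gave 51.3, 67.4, 54.0 and 67.6 FPKM. A shorter form, ENST00000534540, named here after its values were seen, gave 4.81, 26.1, 4.19 and 20.01 FPKM. All its measured transcripts had the miR-210 hairpin in an intron. With same-version transcripts alone the gene was below 5 FPKM, with a log2 difference of -1.59.

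**Figure D2:**
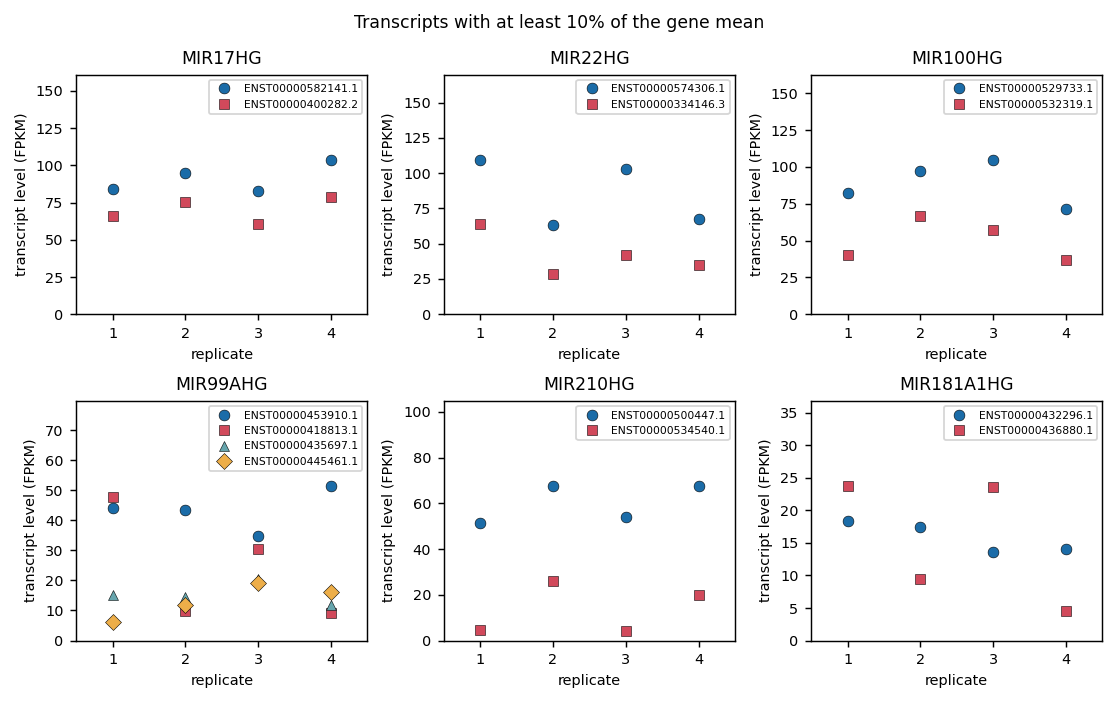
Levels in FPKM of the transcripts that hold at least 10% of their gene's mean, for MIR17HG, MIR22HG, MIR100HG, MIR99AHG, MIR210HG and MIR181A1HG, by replicate; the vertical axes differ between panels. ENST00000418813 of MIR99AHG and ENST00000436880 of MIR181A1HG are higher in replicates 1 and 3 than in replicates 2 and 4, and ENST00000534540 of MIR210HG is lower.

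The same division of the libraries, looked at after seeing the data, appeared in single isoforms of other hosts. Of all 7124 genes tested, 15.2% had both H libraries (replicates 2 and 4) above both L libraries, and 12.6% had them below. After adjustment, 0 of these genes and 0 of 93 member transcripts differed between the letters (limma). In MIR99AHG, the main transcript ENST00000453910 stood at 44.2, 43.6, 34.9 and 51.4 FPKM, while ENST00000418813 stood at 47.6, 9.67, 30.5 and 9.24 FPKM. The second form was close to the first in replicates 1 and 3 and far below it in replicates 2 and 4, while the gene's sum had a coefficient of variation of 12.2%. RSEM divides reads between overlapping isoforms, so these values depend on each other.

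The liver host among the members was MIR194-2HG (chr11:64655930-64660927, minus strand), the host of miR-192 and miR-194, which are abundant in liver and intestine and lie downstream of hepatocyte nuclear factors. It stood at 91.2, 112, 90.0 and 97.3 FPKM (97.6 ± 10.1), with both hairpins in an exon of its single transcript. The liver markers HULC and LINC00261 were at 693 ± 64.8 and 377 ± 27.7 FPKM, and LINC01018 was at 7.29 ± 1.12 FPKM. Of the 6 genes of the liver list tested, MIR194-2HG itself among them, 4 were above 5 FPKM, where 50.3% of all genes tested were. The others, FAM99A and FAM99B, were below it, at 0.24 and 0.41 FPKM, and LINC01093 was listed at 0. MIR122HG, the host of the main liver microRNA, was not analysed here.

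Several hosts known from other tissues were as abundant. MIR205HG (chr1:209602162-209606193, plus strand), the host of miR-205 of basal and squamous epithelia, stood at 149, 144, 154 and 110 FPKM (139 ± 19.7), while MIR200CHG, the host of the epithelial miR-200c and miR-141, had 0.40 ± 0.46 FPKM. MIR202HG, the host of a gonadal microRNA, stood at 157, 197, 168 and 150 FPKM (168 ± 20.9), with 31.0% of its main transcript in repeated sequence. Of MIR205HG, 52.2% came from ENST00000451937, which has the hairpin in an exon, 20.1% repeated sequence and another version than the annotation. The other 47.8% came from ENST00000444286, which ends before the hairpin and has 33.2% repeated sequence. Both are annotated as retained-intron forms, and all other transcripts of the gene were listed at 0. The summed level of both epithelial markers ran from 110 to 154 FPKM over the libraries, nearly all of it MIR205HG.

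The miR-181 family, best known from lymphocyte development, came from MIR181A1HG on chromosome 1 and MIR181A2HG on chromosome 9. MIR181A1HG stood at 42.9, 28.1, 38.8 and 18.7 FPKM (32.1 ± 10.9) and MIR181A2HG at 15.7, 4.25, 15.2 and 6.14 FPKM (10.3 ± 5.99). MIR181A1HG was the higher in all 4 libraries, by 1.65 ± 0.55 on the log2 scale, and p = 0.13 (exact sign-flip permutation test, two-sided) is the smallest that 4 libraries allow.

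Both genes were higher in replicates 1 and 3. In MIR181A1HG this held for ENST00000436880, at 23.8, 9.48, 23.7 and 4.51 FPKM, which does not reach the hairpins. ENST00000432296, which spans both hairpins as an intron, varied less, at 18.3, 17.5, 13.6 and 14.1 FPKM. MIR181A2HG was above 5 FPKM by limma (adjusted p = 0.0147), but this call was lost without replicate 1 (adjusted p = 0.104) or without replicate 3 (adjusted p = 0.0953). It was also lost with no filter on low values (adjusted p = 0.136) and in the H libraries alone (adjusted p = 0.935). The blood hosts MIR142HG and MIR155HG had 0.035 FPKM and 0 respectively.

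MIR503HG (chrX:133677149-133680672, minus strand), whose miR-503 acts on cell-cycle messages, stood at 61.8, 46.1, 53.4 and 55.1 FPKM (54.1 ± 6.46). Transcripts with the hairpin in an intron held 63.3% of it, and no single form held more than 35.1%. MIR130AHG, the host of miR-130a, stood at 65.7, 81.8, 79.4 and 65.5 FPKM, nearly all of it in ENST00000530595. This transcript has 24.5% repeated sequence.

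The p53 target miR-34a had its host MIR34AHG at 7.51, 15.5, 11.5 and 12.04 FPKM (11.6 ± 3.28). Its single transcript (ENST00000437157, chr1:9242066-9243809) does not reach the hairpin at chr1:9211727-9211836, in the current model, so the level says nothing of RNA across miR-34a. The same held for MIR9-1HG, the host of the neural miR-9, at 9.58, 16.7, 14.2 and 13.8 FPKM (13.6 ± 2.95), whose measured transcripts both end before the hairpin. MIR9-1HG was above 5 FPKM as a sum, but not by its highest transcript alone (adjusted p = 0.219, limma).

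MIR137HG, the host of the neural miR-137, stood at 4.45, 6.90, 7.42 and 6.93 FPKM and could not be placed against 5 FPKM (adjusted p = 0.176, limma). The other neural hosts were lower: MIR124-1HG had 0.080 FPKM, and MIR124-2HG and MIR9-3HG were listed at 0. Of the 7 neural markers, 4 could be tested, of which 1 was above 5 FPKM (MIR9-1HG) and 2 below. Of all genes tested, 50.3% were above and 38.5% below.

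MIR3142HG carries the hairpin of miR-146a, a microRNA induced by NF-kappa-B that dampens innate immune signalling, in an exon of its single measured transcript. It stood at 8.87, 3.06, 8.84 and 2.78 FPKM (5.89 ± 3.43), so replicates 1 and 3 were above 5 FPKM and replicates 2 and 4 below, with the highest coefficient of variation of the 33 (58.2%). It was not placed (adjusted p = 0.861, limma), and its difference from 5 FPKM changed sign without replicate 1 or without replicate 3. These levels rest on an estimated 88.7, 32.9, 92.9 and 31.0 fragments.

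MIR217HG, which spans the pancreatic miR-216a, miR-216b and miR-217 in introns of 1 transcript, stood at 8.90, 11.6, 7.98 and 8.72 FPKM. MIR193BHG, the host of miR-193b and miR-365a, stood at 9.80, 6.39, 11.5 and 7.39 FPKM. It was above 5 FPKM, but its main transcript has 25.3% repeated sequence, and with such transcripts left out the gene was below it, with a log2 difference of -1.69. The call was also lost by the highest transcript alone (adjusted p = 0.104, limma) and in the H libraries alone (adjusted p = 0.236). MIR583HG stood at 5.67, 6.27, 7.10 and 4.14 FPKM and was not placed (adjusted p = 0.455, limma).

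The most abundant member was MIR3677HG (chr16:2318156-2323419, plus strand), which spans the hairpins of miR-3677 and miR-940. It stood at 344, 428, 382 and 348 FPKM (375 ± 39.0) and was above MIRLET7IHG in all 4 libraries with ranges that did not overlap. Its main transcript, ENST00000563734, held 97.1% of the level. Without that transcript, which both the repeat and the coding-exon alternatives leave out, the log2 difference from 5 FPKM went from 5.97 to 0.96, still above 5 FPKM but no longer the highest member. This transcript starts 29 nt from the start of RNPS1, a coding gene of splicing on the opposite strand, overlaps exons of that gene over 20.4% of its length and has 39.2% repeated sequence. Whether strand was used in the alignment is not given in the sources used here, and without it reads of both genes cannot be told apart there.

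Hosts of other little-studied microRNAs filled much of the upper range. MIR3945HG stood at 152, 184, 161 and 158 FPKM, MIR4300HG at 139, 144, 162 and 122 FPKM, and MIR548XHG at 118, 140, 147 and 118 FPKM. Of MIR4300HG, 85.6% was in ENST00000532217, which does not reach the hairpin. With repeated transcripts left out, its log2 difference from 5 FPKM went from 4.56 to 1.83. In the 12 hosts above 100 FPKM, 7 had a main transcript with at least 20% repeated sequence, and in the 21 hosts from 5 to 100 FPKM 4 had. At the mark of 25%, which was used for leaving transcripts out, 7 of all 33 hosts had such a main transcript. The share over all genes was not determined.

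MIR3936HG stood at 67.6, 86.1, 92.3 and 57.2 FPKM. Its main transcript had 43.1% repeated sequence, and with such transcripts left out the gene was no longer placed above 5 FPKM (adjusted p = 0.117, limma). MIR4733HG stood at 59.2, 65.0, 68.5 and 65.6 FPKM, from a transcript that overlaps exons of NF1 on the opposite strand over 29.1% of its length and starts 473 nt from the start of NF1. MIR3659HG stood at 59.4, 59.6, 65.9 and 46.5 FPKM and starts 632 nt from POU3F1, also on the opposite strand.

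The rest of the members above 5 FPKM lay lower. MIR600HG stood at 25.7, 31.9, 26.8 and 26.1 FPKM, with its hairpin in an exon of a transcript without introns. MIR762HG had 18.3, 20.9, 17.3 and 25.2 FPKM and MIR663AHG 13.1, 12.7, 11.6 and 18.1 FPKM, both with the hairpin in an intron. MIR646HG had 13.9, 17.4, 14.1 and 11.6 FPKM, and was below 5 FPKM with same-version transcripts alone, with a log2 difference of -1.69. MIR4713HG had 7.27, 12.5, 9.71 and 6.05 FPKM, with 48.9% repeated sequence in its only transcript, which also overlaps an exon of CYP19A1, the aromatase gene, on the opposite strand over 7.67% of its length.

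**Figure D3:**
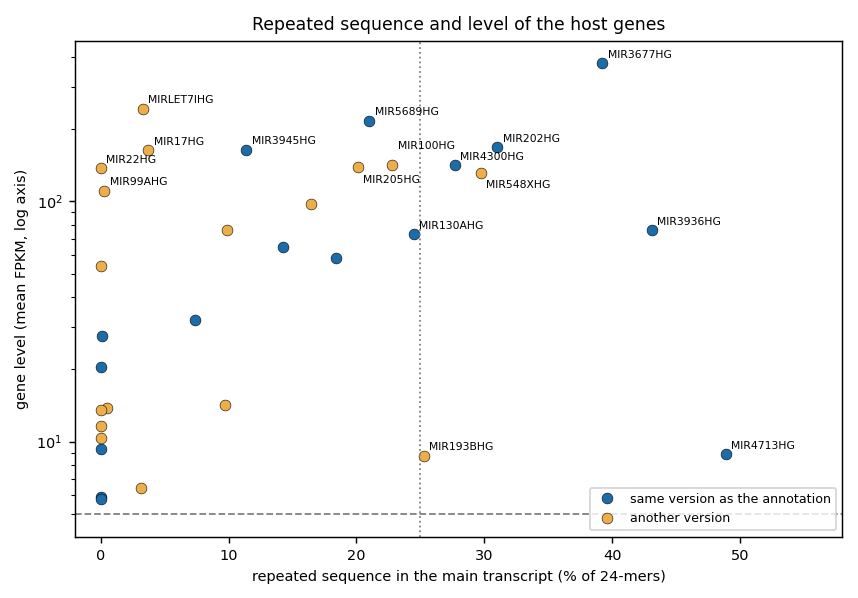
Mean level in FPKM (log axis) of the 33 host genes against the percentage of repeated 24-mers in their main transcript, with points coloured by whether that transcript has the version of the annotation. Dashed and dotted lines mark 5 FPKM and 25%; 7 hosts lie at or above 25%, and 15 lie under 5%, among them MIR22HG, MIR17HG and MIR99AHG.

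Repeated sequence here is the share of a transcript's 24-mers found 10 times or more in GRCh37. Its part in the levels was not tested beyond leaving such transcripts out, after which 25 host genes were above 5 FPKM and MIR202HG, MIR548XHG and MIR4713HG had no transcript left. No main transcript of the 33 hosts overlapped coding exons on its own strand, and 3 overlapped them on the opposite strand. Without transcripts on coding exons, 28 host genes were above 5 FPKM.

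Over the 33 expressed hosts, the hairpins lay mostly in introns of the transcripts measured. Of the 54 hairpins, 29 had most of their host's level in transcripts with the hairpin in an intron, 13 in transcripts with it in an exon, and 12 in transcripts that do not reach it. In 19 hosts every hairpin was mainly intronic, in 5 mainly exonic and in 6 mainly outside the measured transcripts, and 3 hosts were mixed. The exonic hosts included MIR22HG, MIR194-2HG, MIR600HG, MIR17HG and MIR205HG. MIR137HG and MIR3142HG each held 1 exonic and 1 intronic hairpin. The main transcript had the version of the annotation in 16 of the 33 hosts, and positions in the others are those of the current models. For 5 hairpins (MIR3936, MIR4533, MIR548AG2, MIR9-1 and MIR34A), no transcript with a value above 0 reached the hairpin.

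**Figure D4:**
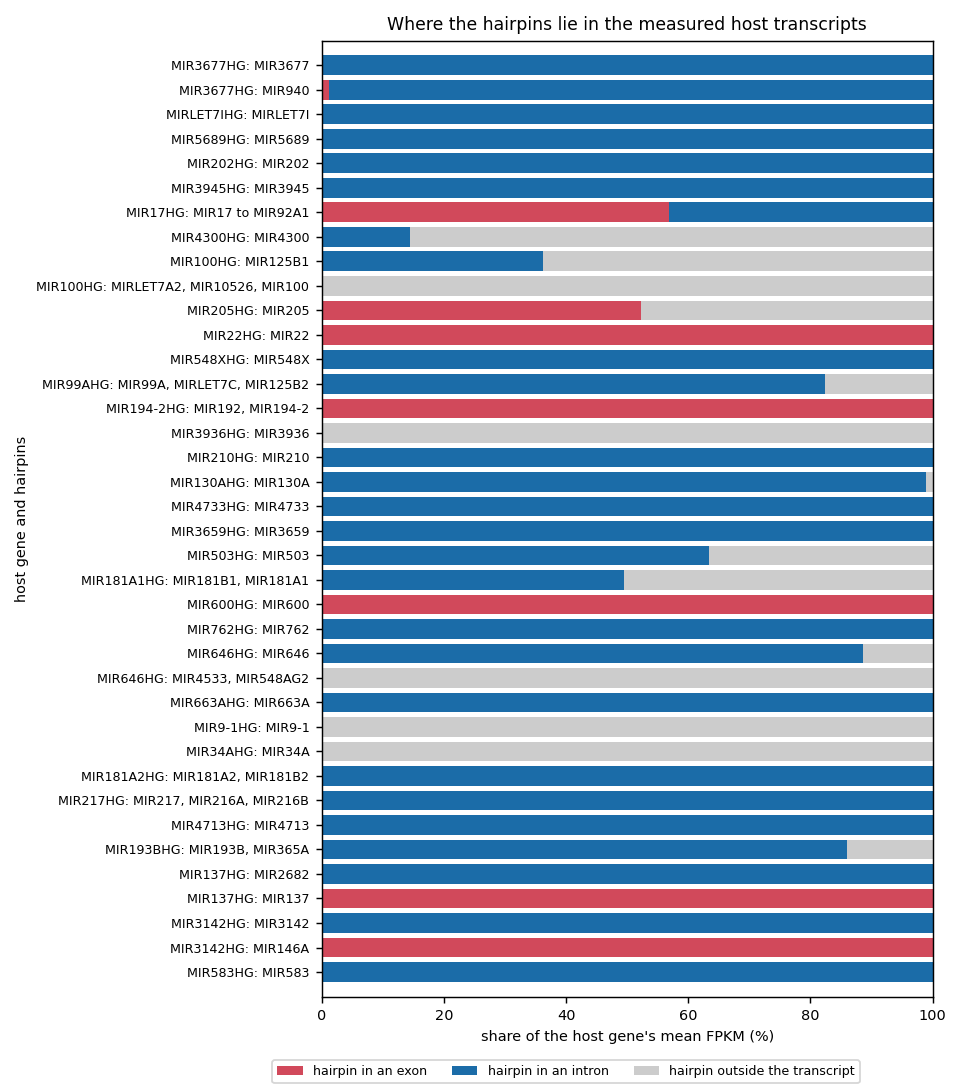
Share of each host gene's mean FPKM held by transcripts in which the hairpin lies in an exon (red), lies in an intron (blue) or is not reached (grey), with hairpins of 1 host drawn together where their shares are the same. Bars add up to 100%; MIR22HG, MIR194-2HG and MIR600HG are wholly exonic, and MIR34AHG, MIR9-1HG and MIR3936HG wholly unreached.

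The order of the 33 hosts, taken from the means of these same 4 libraries, held in every library only in places. Agreement of the libraries with it is thus partly built in. Of 32 neighbouring pairs in the order of means, 7 had the same order in all 4 libraries, and 4 of these had ranges that did not overlap. These were MIR3677HG over MIRLET7IHG, MIR5689HG over MIR202HG, MIR503HG over MIR181A1HG, and MIR600HG over MIR762HG. From MIR202HG to MIR99AHG, whose means ran from 168 to 111 FPKM, no neighbouring pair kept its order in every library. No pair had an adjusted p under 0.571 (exact sign-flip permutation test, two-sided, Benjamini-Hochberg over the 32 pairs), the smallest value that this design gave. The median coefficient of variation of the 33 was 16.7%, and that of all genes above 5 FPKM 15.4%.

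The 9 members below 5 FPKM had means from 0.26 to 1.97 FPKM. MIR133A1HG, the host of a muscle microRNA, had 1.29 FPKM in replicate 1, 6.57 in replicate 2 and 0 in the other two. MIR302CHG, the host of the pluripotency cluster miR-302, had 1.03 FPKM in replicate 1 and 0 in the others. Neither was read in all libraries. MIR4422HG (0.66 ± 0.35), MIR4290HG (0.53 ± 0.36), MIR4307HG (0.52 ± 0.68) and MIR3150BHG (0.44 ± 0.14) were likewise below 5 FPKM. MIR1302-9HG (0.94 ± 0.34) and MIR1302-2HG (0.26 ± 0.31) belong to a subtelomeric family of near-identical copies, between which reads can be split, so their separate values are uncertain.

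Of the 16 members under the filter, 5 had a value above 0 in some library. These were MIRLET7DHG, MIR124-1HG, MIR142HG, MIR4500HG and MIR3976HG, at means of 0.028 to 0.085 FPKM. The 11 listed at 0 included MIR155HG, the host of a microRNA of activated lymphocytes, MIR29B2CHG, whose miR-29 represses collagens, and MIR31HG. MIR9-3HG and MIR124-2HG (neural), MIR7-3HG (endocrine), MIR3663HG, MIR3681HG, MIR4432HG, MIR4458HG and MIR7515HG made up the rest. A value of 0 here says that the table lists 0 for the gene's transcripts of the older annotation.

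Other non-coding hosts, with MIR4435-2HG among them, were set beside the members as a list. Of 17 symbols 16 had transcripts and 15 were tested, of which 10 were above 5 FPKM and 3 below, where 50.3% and 38.5% of all genes tested were. The 15 tested had a median of 50.6 FPKM, against 7.61 FPKM for all genes tested. PVT1, next to MYC, had 271 ± 26.2 FPKM, LINC-PINT 198 ± 35.5 FPKM, FTX of the X inactivation centre 109 ± 10.3 FPKM and DLEU2, the host of miR-15a and miR-16-1, 248 ± 18.1 FPKM. Of the smooth-muscle host CARMN there were 22.3 ± 1.31 FPKM.

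The lists of other cell types gave 1 gene above 5 FPKM each, where 50.3% of all genes tested were above it. The genes tested were 4 neural, 3 pluripotency, 2 muscle, 2 epithelial, 1 blood and 1 gonadal. In the neural, blood, epithelial and gonadal lists the gene above was itself a member, namely MIR9-1HG, MIR181A1HG, MIR205HG and MIR202HG. In the muscle list this was CARMN, with MIR133A1HG below and LINCMD1 at 0, and in the pluripotency list LINC-ROR at 7.48 ± 2.29 FPKM, with ESRG and MIR302CHG below. Summed over a list, levels in the 4 libraries ran from 20.5 to 30.1 FPKM for muscle, from 18.6 to 27.4 FPKM for the neural genes, from 18.7 to 43.1 FPKM for blood and from 7.65 to 12.1 FPKM for pluripotency. The liver list ran from 1045 to 1250 FPKM.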

How the data were processed

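RNA of 4 HUH7 libraries (1 group) was sequenced after removal of ribosomal RNA with a strand-specific kit, although the labels name the molecule as polyA RNA. The authors deposited FPKM values of 19835 non-coding transcripts, aligned with Bowtie 1.01 to the Ensembl 68 non-coding annotation on hg19 (GRCh37) and summarised with RSEM 1.2.3. Coding transcripts were not in that reference, so reads of other RNAs with shared sequence could be placed on these transcripts. Summed FPKM ran from 1755972 to 1965229 per library.

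Of the identifiers, 18373 matched GENCODE release 44 mapped to GRCh37, 11443 with the same version. Of the 193 member transcripts 61 had the same version. The members and lists were chosen with earlier results of these data known. Genes with a mean of at least 0.1 FPKM were tested with limma 3.58.1 in R 4.3.3, as log2(FPKM + 1) against log2(5 + 1), two-sided, with a mean-variance trend, Benjamini-Hochberg adjustment and a threshold of 0.05. This test was tested on simulated data. Neighbours in the order of means were compared by exact sign-flip permutation. Hairpins were placed by exact match of the RefSeq hairpin, or for 8 of the mature arms, to GRCh37. Repeated 24-mers were counted in the sequences of current models, on either strand of the genome. Depth was estimated from steps in low FPKM values times the length less 80 nt in same-version transcripts, of which 67.9% to 69.1% lay within 0.05 of a whole fragment. This is too few for a count test, so none was run.

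Members above 5 FPKM were to be named with each library's value, those from 0.1 to 5 FPKM with mean and SD and the rest by name, and isoforms with at least 20% of their gene. The arms printed are a selection. Alternatives covered pseudocount, threshold, scaling, filters, highest transcript, version, repeats, coding overlap and leaving out libraries.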

Additional observations from a re-analysis of the deposited data

Results flagged for a closer look

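Each of the 33 host genes above 5 FPKM was tested for a library far from the other 3 with Dixon's ratio, which marks about 1 in 20 groups by chance. MIR600HG was marked in 1 library: replicate 2 had 31.85 FPKM, while the other libraries lay between 25.7 and 26.8 FPKM. Replicate 2 also had the highest median-of-ratios scaling factor over all transcripts, 1.12, against 0.97, 1.02 and 0.93 in replicates 1, 3 and 4. Whether the mark stays after such scaling was not tested.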

How the results depend on the processing

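Across the alternatives, 649 values of single host genes kept their direction and their side of the threshold, 14 lost the call in the same direction, 4 gained one and 16 turned. The 30 host genes above 5 FPKM became 16 with same-version transcripts only, a setting that leaves out most member transcripts. In that setting the 3582 of all genes above 5 FPKM became 2544. The 9 host genes below became 4 at a threshold of 1 FPKM, 24 with no filter and 1 with a filter of 1 FPKM. Those settings change which genes can be below. Leaving out 1 library in turn gave 29 to 30 host genes above and 9 to 11 below, with 3500 to 3574 of all genes above. It gave 41 to 43 host isoforms above and 7 to 11 neighbouring pairs of constant order. Against 10 FPKM the log2 differences became -0.13 for MIR181A2HG, -0.11 for MIR217HG, -0.20 for MIR4713HG, -0.20 for MIR193BHG, -0.59 for MIR137HG, -0.82 for MIR3142HG and -0.71 for MIR583HG, and against 1 FPKM that of MIR133A1HG became 0.029. With same-version transcripts only they became -1.26 for MIR17HG, -2.10 for MIR100HG, -1.59 for MIR210HG and -1.69 for MIR646HG. With repeated transcripts left out MIR193BHG became -1.69. MIR3142HG ran from -0.17 without replicate 1 to 0.29 without replicate 4, was -0.17 without replicate 3 and became -0.62 in the libraries with the letter H and 0.72, now above 5 FPKM, in those with the letter L. Whether the depth of 4500000 to 5025000 estimated fragments limits levels near 5 FPKM, or the splitting of reads between isoforms, was not tested. No pairing of samples between groups was possible because there is 1 group, and only hosts were compared within each library.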

Other observations

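The division of replicates 1 and 3 (letter L) from 2 and 4 (letter H) was looked at after seeing the data, as a comparison of 2 against 2 libraries. Of the 33 host genes above 5 FPKM, 5 had both H libraries above both L libraries and 8 had them below. Over all 7124 genes tested, 15.2% and 12.6% did so, and of the 3970 genes with a mean of at least 5 FPKM 632 and 430 did. By limma 0 genes differed between the letters after adjustment, 338 did at an unadjusted p under 0.05, and with only genes of at least 5 FPKM on average 12 did (4 higher and 8 lower in H), 0 of them host genes.

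Among the 42 members tested, 5 had an unadjusted p under 0.05, beside the 338 of all genes. The H minus L differences on the log2 scale were -1.43 for MIR181A2HG, -1.33 for MIR3142HG, -0.81 for MIR181A1HG, -0.78 for MIR22HG and 0.67 for MIR210HG, with adjusted p from 0.812 to 0.848 (limma). Of 93 member transcripts 10 had an unadjusted p under 0.05, as did 549 of all 11435 transcripts tested. After adjustment 0 member transcripts and 2 of all transcripts passed. The differences of member isoforms furthest from 0 among those above 5 FPKM were 2.12 for ENST00000534540 of MIR210HG and -1.90 for ENST00000418813 of MIR99AHG, both failing the adjustment (adjusted p = 0.561 and 0.589, limma).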
